A study of Mus musculus with 24 samples.

Results

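Open chromatin of Cux2-lineage callosal projection neurons (Cux2 CPNs) was compared with that of Tle4-lineage corticothalamic projection neurons (Tle4 CThPNs) of the mouse neocortex late in gestation, at E18.5. The material was the deposited ATAC-seq peak list of each class at that age. A peak was called shared when it overlapped a peak of the other list by at least 1 bp, and Cux2-only or Tle4-only when it did not. On chromosomes 1 to 19 and X the lists held 53704 peaks, 33988 from Cux2 CPNs and 19716 from Tle4 CThPNs, of 292994 peaks in the 12 lists of the series. They gave 20393 Cux2-only and 6178 Tle4-only peaks, and the shared peaks numbered 13595 in the Cux2 list and 13538 in the Tle4 list.

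Cux2 CPNs were tdTomato-labelled cells of Cux2-CreERT2:Ai14 mice and Tle4 CThPNs those of Tle4-2A-CreERT2:Ai14 mice, of strain C57BL/6 by the labels and a mixed C57BL/6J background by the methods. Pregnant dams received 4-hydroxytamoxifen a day before collection, and labelled cells were sorted from somatosensory cortex and part of motor cortex. What was sorted is therefore set by where the Cux2 or Tle4 locus drove Cre at the time of induction. Both classes carried the Ai14 reporter and were given the same agent. Each library pooled 10 embryos, 5 male and 5 female, from 2 litters, and each list was called jointly on 2 biological replicates. The labels and the study's methods give different numbers of sorted cells per library. The 12 lists of the series ran from 6538 to 45642 peaks, with lowest −log10 p values, the strength the peak caller gave, from 11.4 to 22.0. They hold neither read counts nor values per replicate, so depth could not be read from them and no test between the E18.5 lists was possible. Intervals below are 95% Wilson intervals of shares of peaks and cover counting error only. In bulk samples, fewer cells of a type and less accessible chromatin per cell cannot be told apart.

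ATAC-seq marks DNA that the Tn5 transposase can reach, mostly promoters and enhancers free of nucleosomes. Callosal neurons of the upper layers join the cortical hemispheres and carry the homeodomain factors Cux1 and Cux2. Corticothalamic neurons of layer 6 project to the thalamus and carry Tle4, a transcriptional corepressor, together with Tbr1, Sox5 and Foxp2. Fezf2 and Bcl11b (Ctip2) are transcription factors of deep-layer neurons that project below the cortex. Enhancers usually separate neuronal classes more than promoters do.

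Sequences of 7 class-only peaks are shown first because the results below return to these loci. Each is the 200 bp around the peak summit on the plus strand of NCBIM37 (mm9), read from the reference genome. The first 2 are the strongest peak of each class-only set. The others are the strongest Cux2-only peak assigned to Cux2 and to Cux1 and the strongest Tle4-only peak assigned to Tle4, Fezf2 and Grm3, of which the Grm3 peak was chosen after its values were seen. Capitals mark matches, on either strand, to 17 short motifs, and a window without capitals held none of them. The capitals are in the Insig2 window a POU octamer (ATGCAAAT), 2 neuronal E-boxes (CAGATG) and the NFI site (TTGGCA, here as its complement TGCCAA). They are an NFI site in the Cux2 window, a palindromic E-box (CAGCTG) with 2 LIM homeobox motifs (TAATTA) in the Cux1 window, a palindromic E-box in the Tle4 window, and an NFI site with a neuronal E-box in the Grm3 window. A match is a description of the letters and not a bound site.
Cux2-only, Insig2 intron, chr1:123211647-123211846: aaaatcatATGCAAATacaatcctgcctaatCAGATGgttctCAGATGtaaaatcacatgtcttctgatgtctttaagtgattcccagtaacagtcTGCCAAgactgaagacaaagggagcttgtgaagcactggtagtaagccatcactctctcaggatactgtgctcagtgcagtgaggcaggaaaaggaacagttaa
Tle4-only, intergenic near Dpp6, chr5:27110544-27110743: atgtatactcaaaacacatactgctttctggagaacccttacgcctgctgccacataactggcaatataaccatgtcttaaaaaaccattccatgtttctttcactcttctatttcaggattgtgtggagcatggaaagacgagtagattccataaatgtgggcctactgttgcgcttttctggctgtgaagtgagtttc
Cux2-only, Cux2 intron, chr5:122354893-122355092: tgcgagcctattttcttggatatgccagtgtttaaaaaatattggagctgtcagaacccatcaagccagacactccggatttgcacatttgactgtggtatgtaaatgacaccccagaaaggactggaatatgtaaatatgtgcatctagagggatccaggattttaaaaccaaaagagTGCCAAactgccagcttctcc
Cux2-only, Cux1 intron, chr5:136858202-136858401: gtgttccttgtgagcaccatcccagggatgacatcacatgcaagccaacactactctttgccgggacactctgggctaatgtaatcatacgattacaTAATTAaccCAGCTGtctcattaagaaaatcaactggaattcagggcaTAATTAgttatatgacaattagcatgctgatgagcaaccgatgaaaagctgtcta
Tle4-only, intergenic beyond the Tle4 3′ end, chr19:14496337-14496536: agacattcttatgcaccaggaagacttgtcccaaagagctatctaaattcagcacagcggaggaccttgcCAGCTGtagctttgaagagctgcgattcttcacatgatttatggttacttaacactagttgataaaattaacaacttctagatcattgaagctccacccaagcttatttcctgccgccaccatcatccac
Tle4-only, intergenic beyond the Fezf2 3′ end, chr14:13172806-13173005: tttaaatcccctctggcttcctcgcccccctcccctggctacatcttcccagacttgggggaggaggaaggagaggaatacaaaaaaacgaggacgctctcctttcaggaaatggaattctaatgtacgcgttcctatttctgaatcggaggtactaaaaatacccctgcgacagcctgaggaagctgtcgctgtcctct
Tle4-only, Grm3 intron, chr5:9638716-9638915: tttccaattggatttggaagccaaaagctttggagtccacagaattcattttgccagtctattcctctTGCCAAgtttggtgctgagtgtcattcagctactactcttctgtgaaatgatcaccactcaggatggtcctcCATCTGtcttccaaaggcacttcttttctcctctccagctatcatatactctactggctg

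Most of the Cux2 list had no counterpart in the Tle4 list, whereas most of the Tle4 list had one in the Cux2 list. Cux2-only peaks made up 60.0% of the Cux2 list (59.5 to 60.5%). Shared peaks made up 68.7% of the Tle4 list (68.0 to 69.3%), which left 31.3% Tle4-only. These shares depended on list length, because the Cux2 list was 1.72 times as long and had 3.30 times as many class-only peaks. Its lowest −log10 p was 11.4, against 14.5 in the Tle4 list. When the Cux2 list was shortened to its 19716 strongest peaks, which ended at a −log10 p of 17.7, the class-only sets became equal. They then held 8647 Cux2-only peaks (43.9%) and 8644 Tle4-only peaks (43.8%). Of the latter, 2466 (28.5%) overlapped a weaker peak of the full Cux2 list. Because shared peaks pair almost one to one between lists, lists of equal length must leave nearly equal class-only sets, whatever the classes. The equality therefore shows nothing about the classes. Nor can the larger Cux2-only share of the full lists be separated from list length.

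Stronger peaks were shared more often than weaker ones in both lists. In the strongest decile of each list 94.4% of Cux2 peaks (93.6 to 95.1%) and 97.0% of Tle4 peaks (96.1 to 97.6%) had a counterpart. In the weakest decile these shares were 13.9% (12.8 to 15.2%) and 51.3% (49.1 to 53.5%). Outside promoters the strongest decile was shared in 75.2% of Cux2 and 81.9% of Tle4 peaks. Over the 13595 shared Cux2 peaks, the strength rank in the Cux2 list and that of the overlapping Tle4 peak had a Spearman correlation of 0.64, a description across peaks of lists that differ in length. Class-only peaks were mostly far from the other list. The median gap to its nearest peak was 37300 bp for Cux2-only and 24600 bp for Tle4-only peaks, and only 134 and 34 peaks, respectively, lay within 200 bp. Most class-only peaks thus had no called peak of the other list close by, which leaves signal below its limit unseen.

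**Figure D1:**
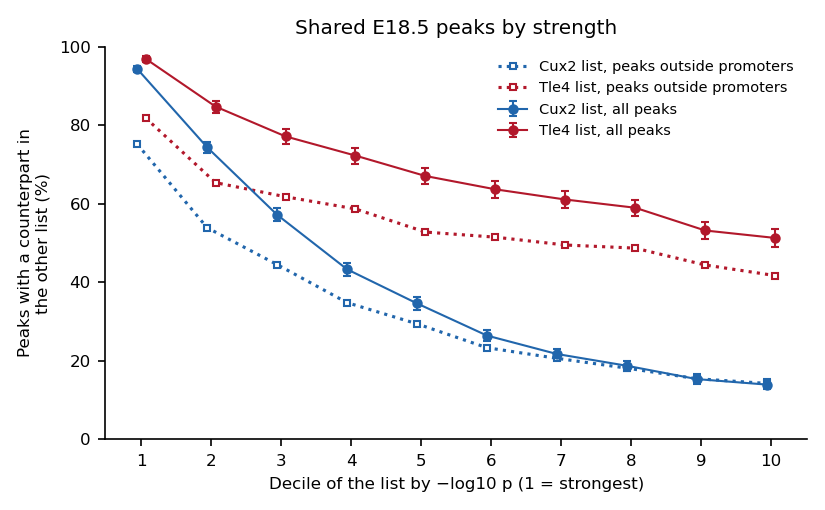
Share of peaks (y axis, %) with a counterpart in the other E18.5 list, by decile of −log10 p (x axis, 1 is strongest); filled circles are all peaks with 95% Wilson intervals and open squares are peaks outside promoters. Cux2 peaks fell from 94.4% to 13.9% and Tle4 peaks from 97.0% to 51.3%.

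Of the 10 strongest class-only peaks, 5 per set, 1 lay at a promoter, and the rest were intronic or intergenic. The leading Cux2-only peak, chr1:123211151-123212041, lay in an intron of Insig2, a regulator of sterol synthesis, 2160 bp from its start. It had a −log10 p of 95.2 and a fold enrichment of 17.5, and it was found in the Cux2 lists of P1, P3 and P7 and in none of the 6 Tle4 lists. The third to the fifth lay at chr14:61173016-61173582, chr13:112924924-112925339 and chr10:111199885-111200634, all intergenic, with −log10 p of 81.9, 81.5 and 81.0. Of these 3, the peak on chromosome 14, whose nearest coding gene was Spata13, was found in the Cux2 lists of all 6 ages and also in the Tle4 lists of P21 and P48. The other 2 were found in 4 Cux2 lists and in no Tle4 list.

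The leading Tle4-only peak, chr5:27110391-27111094, lay 32649 bp from the start of Dpp6, an auxiliary subunit of Kv4 potassium channels, with a −log10 p of 86.1 and a fold enrichment of 20.3. It was found in 4 Tle4 lists and, at P3, in 1 Cux2 list. The second lay at chr16:64551348-64552060, 72374 bp from Csnka2ip, with a −log10 p of 80.4. The third, chr3:156615942-156616567, was intronic with a −log10 p of 77.9 and was found in 5 Tle4 lists and in no Cux2 list. The fifth, chr15:67517695-67518529, had a −log10 p of 76.1 and was found in 5 Tle4 and 2 Cux2 lists. The remaining member of each leading 5 lay on chromosome 18, for Tle4-only peaks 724 bp from a start of Dtna, which encodes the dystrophin-associated protein α-dystrobrevin. By contrast, the 5 strongest shared peaks were promoters, of Trpm8, Fam59a, Med19, Creb3l2 and Hsd17b12, and were found in all 12 lists.

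Promoters were unevenly spread over the sets. Peaks within 1 kb of an annotated transcription start (TSS) made up 52.1% of shared peaks in the Cux2 list (51.3 to 53.0%), 17.8% of Cux2-only peaks (17.3 to 18.3%) and 4.94% of Tle4-only peaks (4.42 to 5.51%). Intergenic peaks made up 27.1%, 43.3% and 55.4%, respectively. Introns held 35.1% of Cux2-only and 35.9% of Tle4-only peaks, against 18.4% of shared peaks. Seen from the lists, 305 of the 7374 promoter peaks of Tle4 CThPNs (4.14%) were Tle4-only, compared with 47.6% of their peaks outside promoters. In Cux2 CPNs, 3630 of 10719 promoter peaks (33.9%) and 72.0% of the others were Cux2-only. In both lists promoter peaks were class-only less often than the others. With lists of equal length 17.4% of Cux2-only and 9.25% of Tle4-only peaks lay at promoters.

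**Figure D2:**
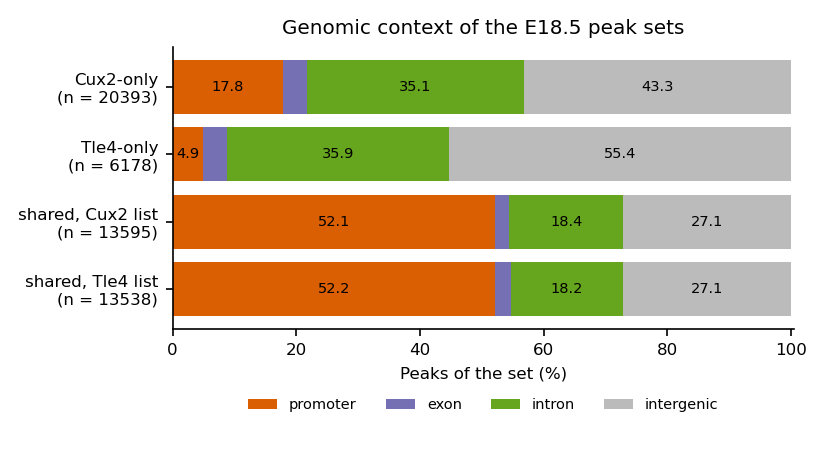
Genomic context of the E18.5 peak sets as stacked shares (x axis, % of the peaks of the set); each bar is a set, with its number of peaks. Promoters take 52.1% of the shared peaks of the Cux2 list and 4.94% of Tle4-only peaks.

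Shared peaks were also wider and more GC-rich. Median widths were 410 bp for Cux2-only, 540 bp for Tle4-only and 576 bp for shared peaks of the Cux2 list. In the 200 bp around the summit the median GC content was 46.0% in Cux2-only, 43.5% in Tle4-only and 55.0% in shared peaks. Windows with over 50% GC and a CpG observed to expected ratio above 0.6 made up 13.4% of Cux2-only, 1.83% of Tle4-only and 44.4% of shared peaks. In the class-only sets of equal list length they made up 13.2% and 5.62%. Outside promoters the medians were close, at 44.0%, 43.5% and 46.0%. The class-only sets were thus closer to each other and to shared peaks once promoters were set aside.

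The presence of the E18.5 sets in the later lists depended on class through P7 and much less at P21 and P48. Cux2-only peaks were found in the Cux2 lists of P1, P3, P7, P21 and P48 for 39.1, 49.3, 36.3, 18.8 and 27.7% of peaks. In the Tle4 lists of the same ages they were found for 9.10, 14.7, 7.35, 2.34 and 5.88%. Tle4-only peaks were found in the Tle4 lists for 64.6, 67.7, 38.1, 5.62 and 11.5%. In the Cux2 lists their share was 5.68, 13.1, 16.4, 19.9 and 22.7%, higher at each later age, and the Cux2 lists were also longer at each later age. At P21 the Cux2 list thus held 18.8% of Cux2-only peaks (95% interval 18.3 to 19.4%) and 19.9% of Tle4-only peaks (18.9 to 20.9%), so that the direction seen at the other 4 ages was not present in it.

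These shares also move with the length of the later lists. The Cux2 lists after E18.5 held 21747 to 45642 peaks and the Tle4 lists 6538 to 22437, with the shortest at P21. Both E18.5 sets were therefore compared within each list, which gives them the same list length, although the size of a difference still moves with that length. The share of Cux2-only peaks found minus that of Tle4-only peaks averaged 18.7 percentage points over the 5 Cux2 lists and −29.6 points over the 5 Tle4 lists. The difference between the classes was 88.9 points at P1, 89.2 at P3, 50.7 at P7, 2.21 at P21 and 10.6 at P48, positive at 5 of 5 ages. Its mean was 48.3 points ± 41.5 (SD, n = 5 ages). In an exact two-sided permutation test that swapped the class labels within ages this gave p = 0.0625, the smallest p that 32 swaps can give.

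**Figure D3:**
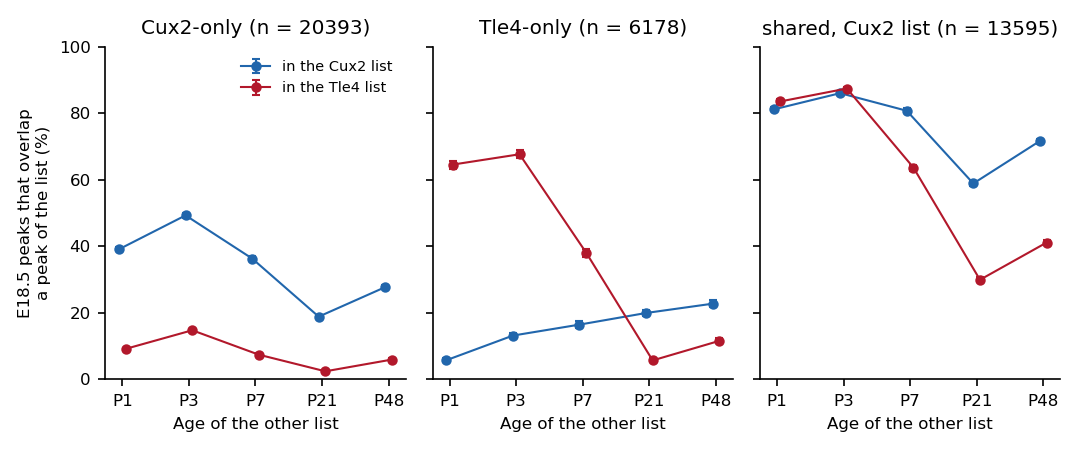
Share of each E18.5 set (y axis, %) that overlaps a peak of the Cux2 list (blue) or the Tle4 list (red) at 5 later ages (x axis), with 95% Wilson intervals. Tle4-only peaks were found in 64.6% in the Tle4 list of P1 and in 5.62% in that of P21, where the Cux2 list held 19.9% of them.

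Class-only peaks differed in how far they were kept. No other list held 6539 Cux2-only peaks (32.1%) and 1161 Tle4-only peaks (18.8%), compared with 324 shared peaks of the Cux2 list (2.38%). The sets differed in strength, with a median −log10 p of 16.4 for Cux2-only, 20.0 for Tle4-only and 30.4 for these shared peaks. The part of strength and list length in these shares was not tested. Peaks found in the P1, P3 and P7 lists of their own class and in no later list of the other class numbered 2319 (11.4%) and 1053 (17.0%). A peak found at later ages only in the other class was rare, with 319 Cux2-only (1.56%) and 270 Tle4-only peaks (4.37%). Strong class-only peaks were kept most often. Among the 191 Cux2-only peaks in the strongest decile of their list, 97.9% were found again in the P1 Cux2 list and 10.5% in the P1 Tle4 list. All 61 such Tle4-only peaks were found in the P1 and P3 Tle4 lists, and 28 of them (45.9%) in at least 1 later Cux2 list.

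Class-only promoter peaks were found in the other class at later ages more often than the rest. Of the 3630 Cux2-only promoter peaks, 1663 (45.8%) were found in a later Tle4 list, compared with 16.1% of the 16763 Cux2-only peaks outside promoters. For Tle4-only peaks the shares in a later Cux2 list were 51.1% of 305 at promoters and 33.6% of 5873 elsewhere. Without promoters, the class difference over the 5 ages was 48.7 points, an alternative chosen after seeing the data.

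Each peak was next assigned to the protein-coding gene with the nearest TSS within 100 kb, which placed 74.9% of Cux2-only and 61.6% of Tle4-only peaks. Nearness does not show that a peak regulates the gene. Of 22350 coding genes, 7563 (33.8%) had more Cux2-only and 1080 (4.83%) more Tle4-only peaks. At equal list length these were 3456 and 2645 genes, so gene counts are given for both below. Shortening the Cux2 list can only lower the Cux2-only count of a gene and raise its Tle4-only count, so a Tle4-only excess cannot be lost by it.

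The genes with the largest excess of Tle4-only peaks included 3 neurotransmitter receptor genes and the transcription factor genes Fezf2 and Nfia. Grm3, the metabotropic glutamate receptor mGluR3 (chr5:9485236-9725352), had the largest excess, with 7 Tle4-only peaks, 2 shared peaks (1 of them at its promoter) and no Cux2-only peak. Of the 7, 6 were intronic and 1 lay at a promoter. In the Tle4 lists of P1, P3 or P7, 5 of them were found again, and 2 were found in a later Cux2 list. The strongest, chr5:9638300-9639342, is printed above. Its −log10 p was 46.4, and it was found in 5 Tle4 lists and in no Cux2 list. The dopamine receptor gene Drd1a and the serotonin receptor gene Htr1f each had 4 Tle4-only peaks and no Cux2-only peak. A later Cux2 list held 2 of those at Drd1a and 0 of those at Htr1f. At Htr1f the promoter peak, chr16:65106387-65106845, was found in the Tle4 lists of E18.5 to P7 and in no Cux2 list. Btc, which encodes the growth factor betacellulin, had 5 Tle4-only peaks and no other peak. The strongest of these had a −log10 p of 56.5, and 1 was found in all 6 Tle4 lists and no Cux2 list. Another 1 was found in a later Cux2 list.

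The other genes with the largest Tle4-only excess were Arhgap26, Tes, Etl4, Rapgef5, Fezf2 and Nfia. Arhgap26, a GTPase-activating protein, had 8 Tle4-only and 3 Cux2-only peaks. Tes, which encodes the focal adhesion protein testin, had 7 and 2, Etl4 had 7 and 3, and Rapgef5, an exchange factor for Rap GTPases, had 5 and 1. Nfia, a member of the nuclear factor I family, had 7 Tle4-only and 3 Cux2-only peaks. A later Cux2 list held 4 of the Tle4-only peaks at Arhgap26, 4 at Rapgef5 and 3 each at Tes, Etl4, Fezf2 and Nfia. Over all Tle4-only peaks 34.5% were found in a later Cux2 list. Some of the excesses depended on how peaks were assigned to genes. With a TSS within 20 kb Drd1a had no class-only peak, since its 4 Tle4-only peaks lay 28255 to 99107 bp away. With a TSS within 500 kb Rapgef5 had as many Cux2-only as Tle4-only peaks (a difference of 0). In the stronger part of each list the excess was 1 peak at Nfia, Drd1a and Rapgef5 and 2 to 5 peaks at the other 7.

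At Fezf2 (chr14:13174406-13178379) there were 7 Tle4-only, 3 Cux2-only and no shared peaks, and neither list had a peak at its promoter. All 7 Tle4-only peaks were found again in the Tle4 lists of P1 and P3, and they lay 5150 to 90906 bp from the start of the gene. All lay outside Fezf2, 3 intergenic, 3 in introns and 1 at a promoter of other annotated genes. The strongest, chr14:13172721-13173229, had a −log10 p of 34.9 and was also found in the Cux2 lists of P7 and P21. Of the Cux2-only peaks at Fezf2, that at chr14:13225910-13226466 had a −log10 p of 35.2 and was found in the Cux2 lists of E18.5 to P7 and in no Tle4 list. Both classes thus had class-only peaks assigned to the gene, at different positions, the nearest of them 2214 bp apart. A peak in both E18.5 lists, at 61.463 to 61.815 kb in the Tle4 list, was not assigned to Fezf2.

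Of the peaks assigned to Tle4 (chr19:14522562-14672473) the promoter peak and 4 others were shared, and the difference lay in 3 Tle4-only peaks beyond the 3′ end. The promoter peak was found in all 12 lists. The strongest Tle4-only peak, chr19:14495703-14496707, had a −log10 p of 39.1 and was found in 5 Tle4 lists and in no Cux2 list. That at chr19:14480883-14481679 had 33.2 and was found in 4 Tle4 lists and in the P48 Cux2 list. The third, chr19:14490173-14490809, had 18.6 and was found in 2 Tle4 lists. No Cux2-only peak was assigned to Tle4. A further Tle4 E18.5 peak, at 245.331 to 245.926 kb, had no Cux2 E18.5 counterpart and was not assigned to Tle4. It was found again in the Tle4 lists of P1, P3 and P7 and in no Cux2 list.

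Around Cux2 (chr5:122308396-122500111) the pattern was one-sided. The gene had 9 Cux2-only peaks, 6 of them intronic and 2 at promoters, and no shared or Tle4-only peak. The closest Tle4 E18.5 peak to any of the 9 lay 190594 bp away. The strongest, chr5:122354824-122355217, had a −log10 p of 33.4 and was found in the Cux2 lists of E18.5, P1, P3 and P7. The stronger promoter peak, chr5:122374405-122374847, had 25.8 and was found at E18.5 and P1. None of the 9 was found in any Tle4 list. Cux1 (chr5:136724005-137043301) had 7 Cux2-only peaks, 1 shared intronic peak and no Tle4-only peak, and none of the 7 was found in a Tle4 list. Its strongest, chr5:136858122-136858756, had a −log10 p of 33.1. The loci that drove Cre thus differed. Only the Cux2 list had a peak within 1 kb of an annotated start of Cux2, and that start was not its most upstream one. The peak at the most upstream start of Tle4 was present in both lists.

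**Figure D4:**
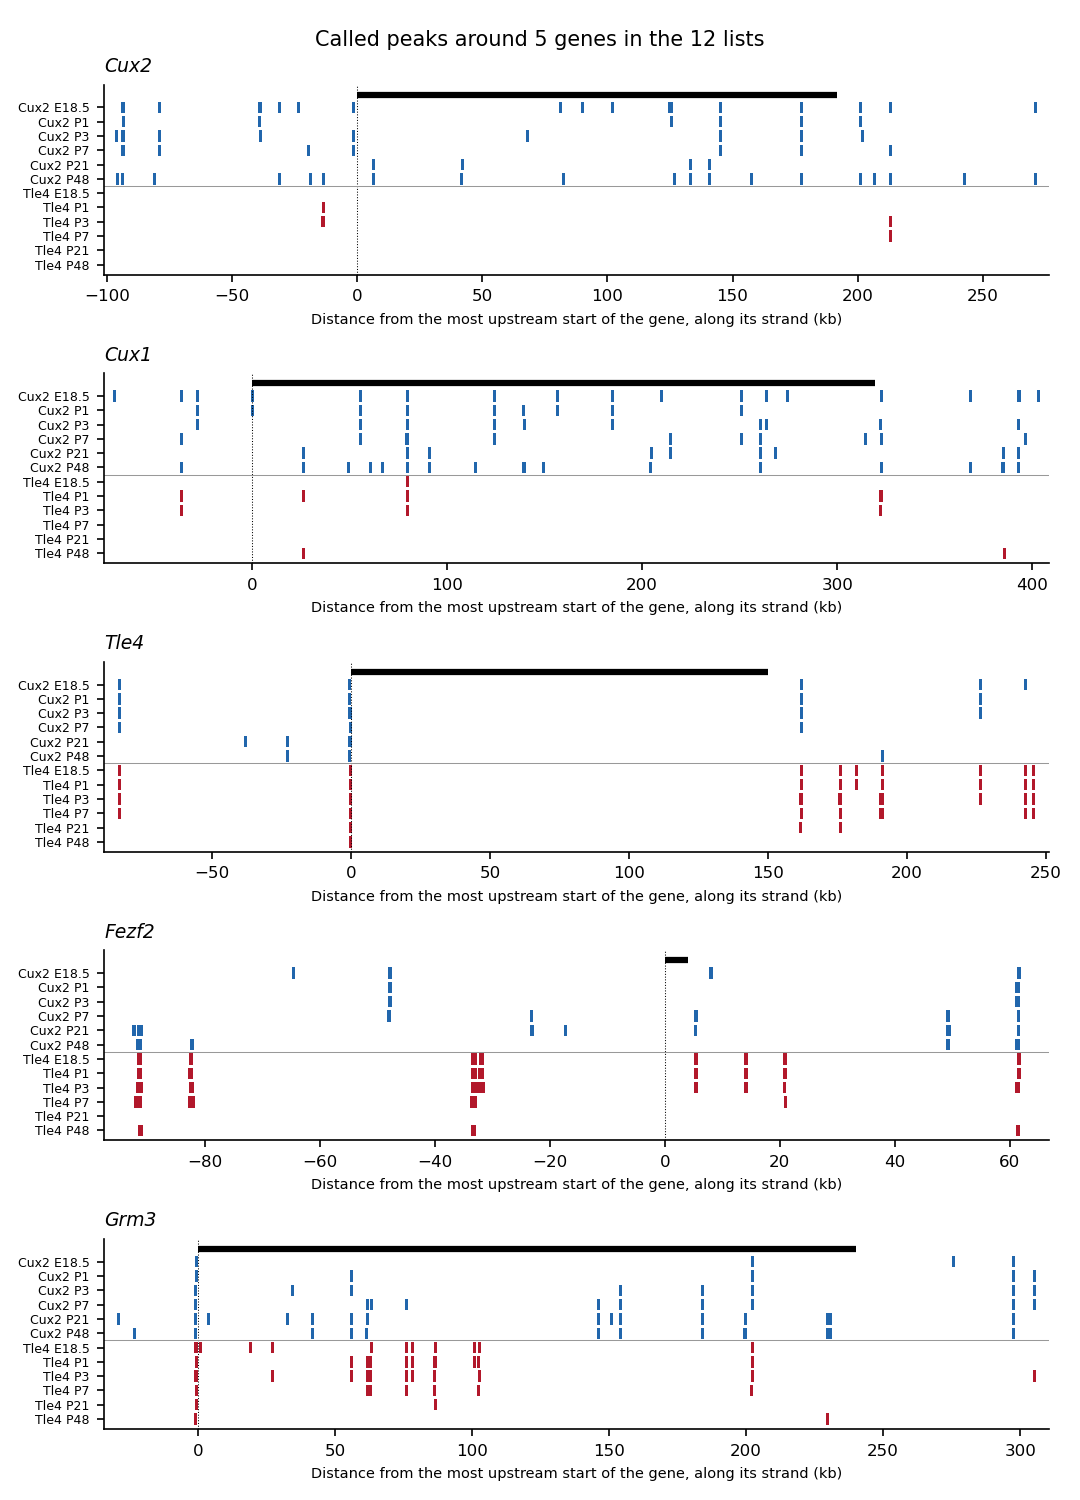
Called peaks around Cux2, Cux1, Tle4, Fezf2 and Grm3 in the 12 lists (rows), against distance from the most upstream gene start along its strand (x axis, kb); the black bar is the gene, marks are drawn with a minimum width and their height carries no value. Cux2 has 9 assigned peaks in the Cux2 E18.5 list and none in the Tle4 E18.5 list, and Fezf2 has 7 Tle4-only peaks.

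The 10 genes with the largest Cux2-only excess were 145 to 1500 kb long. Agap1, an ArfGAP of endosomal traffic (440 kb), had 11 Cux2-only peaks and no other peak. Trim2, an E3 ubiquitin ligase, had 10 and Abr, a regulator of small GTPases, had 10, both without a Tle4-only peak. Grik3, a kainate receptor subunit, had 9 and no Tle4-only peak. Dlgap2, a postsynaptic scaffold protein, had 12 Cux2-only peaks and 1 Tle4-only peak, as did Pam, an enzyme of neuropeptide amidation. Pde4d, a cAMP phosphodiesterase (1500 kb), had 17 and 7. Tcf4, an E protein that pairs with neurogenic bHLH factors, the unnamed gene 1700025G04Rik and Frmd4a each had 11 and 1. In the lists of equal length Cux2-only peaks still outnumbered the others at Agap1 (8 against 0), Grik3 (7 against 0), Dlgap2 (7 against 2) and Trim2 (6 against 1). At Tcf4 (1 against 1) they did not, and Frmd4a had more Tle4-only peaks (3 against 5).

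Class-only peaks at genes known for callosal neurons had nearly the ratio of all coding genes. At genes known for corticothalamic neurons, as in several other lists below, Tle4-only peaks took a larger part than over all genes. Of 24 callosal genes, 20 had more Cux2-only and 4 more Tle4-only peaks, where 33.8% and 4.83% of all coding genes did. The callosal genes had a median difference of 2.0 peaks, against a median of 0.0 over all coding genes. Their peaks summed to 69 Cux2-only and 17 Tle4-only, a ratio of 4.06, close to the ratio of 4.01 over all coding genes. With lists of equal length these sums were 33 and 22, while over all genes they were 6441 and 5630. Besides Cux1 and Cux2, Inhba had 2 Cux2-only peaks with no Tle4-only peak. Lhx2, a LIM homeodomain factor, had a Cux2-only promoter peak with a −log10 p of 42.1 that was found in 4 Cux2 lists and no Tle4 list. The 4 exceptions were Lpl (0 Cux2-only and 3 Tle4-only), Plxnd1 (0 and 1), Pvrl3 (2 and 3) and Gfra2 (2 and 3).

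Of 15 corticothalamic genes, 6 had more Cux2-only and 6 more Tle4-only peaks, where 33.8% and 4.83% of all coding genes did. The sums were 27 Cux2-only and 24 Tle4-only peaks, a ratio of 1.12 against 4.01 over all genes, and with lists of equal length 7 and 28, a ratio of 0.250 against 1.14. Those with more Tle4-only peaks were Tle4, Tbr1, Foxp2, Zfpm2, Syt6 and Nfia. Tbr1 had a Tle4-only peak, chr2:61636044-61636445, found in the Tle4 lists of E18.5, P1 and P3 and in no Cux2 list. Syt6 had a Tle4-only peak, chr3:103322462-103322984, found in all 6 Tle4 lists and in the P48 Cux2 list. Sox5 had 8 Cux2-only and 5 Tle4-only peaks in the full lists and 1 and 5 with equal length. Ntsr1 (3 and 0) and Wnt7b (3 and 0) had Cux2-only peaks alone, and Crym and Hs3st4 had no peak in either list. Of the 24 Tle4-only peaks, 19 (79.2%) were found again in the Tle4 lists of P1, P3 or P7, and 11 (45.8%) in a later Cux2 list. For all Tle4-only peaks these shares were 76.0% and 34.5%. Of the 69 Cux2-only peaks at callosal genes, 44 (63.8%) were found again in early Cux2 lists and 7 (10.1%) in a later Tle4 list, against 61.2% and 21.4% of all Cux2-only peaks.

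Subcerebral projection neurons send axons to brainstem and spinal cord. Of 10 of their genes, 6 had more Cux2-only and 1 more Tle4-only peaks, where 33.8% and 4.83% of all coding genes did. Their 21 and 10 peaks (against a ratio of 4.01 over all genes) became 7 and 12 with equal length, a ratio of 0.583 against 1.14. Fezf2 alone held 7 of the 10 Tle4-only peaks. Bcl11b had 5 Cux2-only peaks, of which that at the promoter was found in the P1 Tle4 list, and 1 Tle4-only peak, chr12:109287690-109288259. The latter lay 45878 bp from its start, had a −log10 p of 36.5 and was found in 5 Tle4 lists and no Cux2 list. Of 6 subplate genes 3 had more Cux2-only and 2, Nr4a2 and Cplx3, more Tle4-only peaks, beside the same shares of 33.8% and 4.83%. With equal length these were 1 and 2 genes, and their 7 Cux2-only and 3 Tle4-only peaks became 2 and 4.

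At genes that steer axons and genes that sort cells by adhesion the peak ratio fell with equal list length, as over all coding genes. Both lists lay below all coding genes under both settings, the adhesion genes further below. Of 43 axon guidance genes 26 had more Cux2-only and 5 more Tle4-only peaks in the full lists, where 33.8% and 4.83% of all coding genes did. With equal length these were 9 and 17 genes, against 3456 and 2645 of all 22350 coding genes. The peak ratio of axon guidance genes went from 3.30 to 0.794, and that over all genes from 4.01 to 1.14. Epha3 (5 and 0), an ephrin receptor, had Cux2-only peaks alone in the full lists. So had the Robo family receptors Robo3 (4 and 0) and Robo2 (5 and 0), while Robo2 had 0 and 1 at equal length. Epha7 had 2 Tle4-only peaks and no Cux2-only peak under both. Of 13 cadherin genes, which encode homophilic adhesion molecules, 4 had more Cux2-only and 3, namely Cdh4, Cdh9 and Cdh10, more Tle4-only peaks. With equal length these counts were 0 and 5. The peak ratio of cadherin genes went from 1.11 to 0.455, against 4.01 and 1.14 over all genes.

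Markers of other cells were looked at in the same way. Cortical interneurons are born in the ventral forebrain and are not callosal or corticothalamic. All 12 interneuron genes, among them Dlx1, Dlx2, Gad1, Gad2 and Lhx6, had Cux2-only peaks (20 in sum) and none had a Tle4-only peak, where 38.0% of all coding genes had a Cux2-only and 12.4% a Tle4-only peak. At 7 of the 12 the promoter had a peak in the Cux2 list, and at none in the Tle4 list, against 46.4% and 34.6% of all coding genes. The 20 peaks were weak, with a median strength rank at the 25.9th percentile of the Cux2 list, and 11 were found again in the Cux2 lists of P1, P3 or P7. With equal length they were 7 Cux2-only and 2 Tle4-only peaks, the latter at Dlx5. The part of interneurons in the Cux2-only set was not tested.

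The other marker lists are given against the ratio of 4.01 Cux2-only to 1 Tle4-only peak over all coding genes. Of the 10 progenitor genes 2, Pax6 and Sox2, had a promoter peak in the Cux2 list alone, as did 2 of 6 astrocyte genes, Gfap and Sox9. Over all coding genes these were 2824 of 22350. Of the other progenitor genes 1 had a promoter peak in both lists and 7 in neither. The 10 progenitor genes had 12 Cux2-only and 8 Tle4-only peaks, of which Pax6 had 1 and 2. The 6 astrocyte genes had 7 and 4, the 6 endothelial genes 8 and 2, the 6 Cajal-Retzius genes 9 and 1, and the 6 oligodendrocyte genes 3 and 0. With equal length these were 6 and 9 for progenitor, 3 and 4 for astrocyte, 3 and 2 for endothelial, 3 and 4 for Cajal-Retzius and 3 and 0 for oligodendrocyte genes, so that several no longer had more Cux2-only peaks. Olig1, Olig2 and Sox10 had no peak in either list. The 6 microglial genes had 2 Cux2-only and 3 Tle4-only peaks. P2ry12 and Tmem119 had a promoter peak in the Tle4 list alone, against 176 of 22350 coding genes, and the other 4 in neither list. Cx3cr1, Csf1r and Aif1 had no assigned peak. Of 13 annotated pan-neuronal genes 8 had more Cux2-only and 1, Neurod6, more Tle4-only peaks, where 33.8% and 4.83% of all coding genes did. Their peaks were 27 and 10 in sum, and 12 and 14 with equal length. Both lists had a promoter peak at 4 of them and the Cux2 list alone at 4, against 7546 and 2824 of 22350 coding genes. The part of these cells in the class-only sets was not tested.

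**Figure D5:**
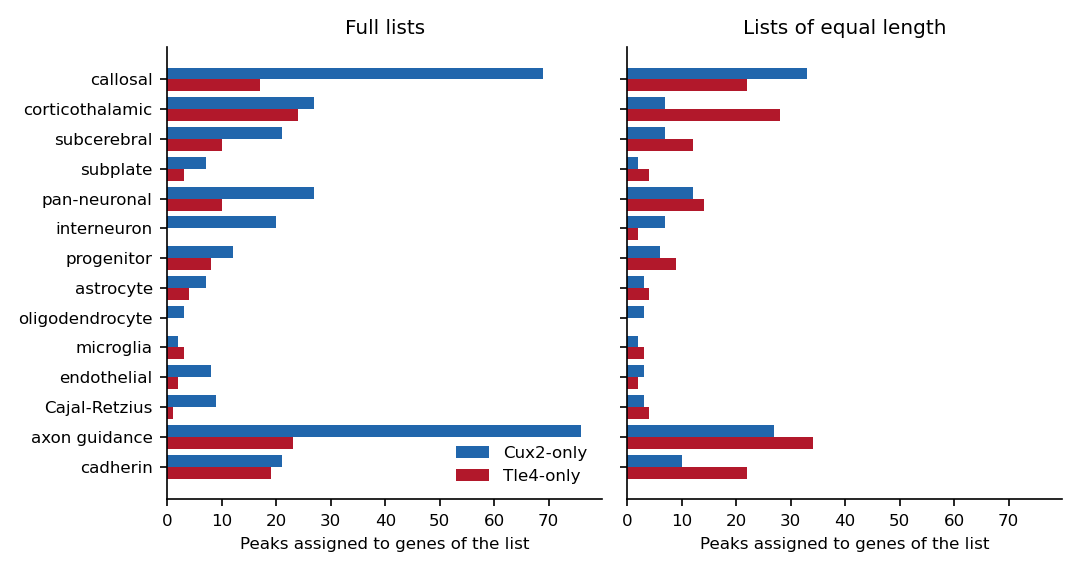
Number of Cux2-only (blue) and Tle4-only (red) peaks assigned to the genes of 14 lists (x axis), for the full lists (left) and lists of equal length (right). Callosal genes have 69 and 17 peaks on the left and 33 and 22 on the right, and corticothalamic genes 27 and 24 on the left and 7 and 28 on the right.

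Short motifs in the 200 bp around summits outside promoters differed between the class-only sets. For comparison, windows placed 5 kb to either side of these peaks were searched in the same way. The NFI site TTGGCA, the single arm of its palindrome, read by nuclear factor I proteins, stood in 32.2% of Tle4-only (31.0 to 33.4%), 19.2% of Cux2-only (18.6 to 19.8%) and 21.9% of shared windows, against 9.78% beside the peaks. The full NFI palindrome, which adds a mirrored TTGGC after a spacer of 5 bases and partly overlaps that arm, stood in 3 Cux2-only, 1 Tle4-only and 1 shared window. MEF2 motifs (CTATTTATA) stood in 1.14% of Tle4-only and 0.620% of Cux2-only windows, against 0.314% beside the peaks. After shortening the Cux2 list, the NFI site was in 29.8% of Tle4-only and 20.2% of Cux2-only windows. MEF2 motifs were then in 1.10% (0.889 to 1.35%) and 0.798% (0.616 to 1.03%), with overlapping intervals. Nfia itself was among the 10 genes with the largest Tle4-only excess and had a promoter peak in both lists. A link between the peaks at Nfia and the motif was not tested.

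Cux2-only windows more often held E-box, octamer, SOX and homeobox motifs. The palindromic E-box CAGCTG stood in 19.9% of Cux2-only (19.3 to 20.5%) and 9.48% of Tle4-only windows (8.76 to 10.3%), against 7.84% beside the peaks. The neuronal E-box CAGATG, bound by proneural bHLH factors, stood in 30.5% and 23.9%, against 15.1%. The POU octamer ATGCAAAT, bound by factors such as Pou3f2, stood in 5.23% and 2.26%, against 1.60%. The LIM homeobox motif TAATTA, which Dlx factors also bind, stood in 10.7% and 4.41%, and beside the peaks in 6.64%, between the sets. The SOX motif AACAAAG stood in 6.58% and 1.65%, and the forkhead motif TGTTTAC in 4.33% and 2.03%, against 5.47% and 2.90% beside the peaks. Tle4-only windows thus held these last 3 motifs less often than the DNA beside the peaks. So did shared windows, with 5.75% for LIM homeobox, 3.75% for SOX and 2.51% for forkhead motifs. In the sets of equal list length the palindromic E-box stood in 21.8% and 9.91%, and the SOX motif in 6.77% and 1.98%.

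The CTCF core AGGGGGCGC, read by the insulator protein CTCF, stood in 115 Cux2-only windows (0.686%) and 3 Tle4-only windows (0.0511%), and in 0.615% of shared windows. At equal list length it stood in 0.518% and 0.166%. The CUT motif ATCGAT, which Cux proteins can bind, stood in 0.215% of Cux2-only and 0.732% of Tle4-only windows, and in 0.834% beside the peaks. The T-box motif AGGTGTGA, which Tbr1 can bind, stood in 0.280% and 0.664%, and in 0.796% beside the peaks. AP-1 (TGACTCA) stood in 3.63% and 3.41% and hardly differed from the 3.19% beside the peaks. RFX (GTTGCCATG, 1.33% and 0.834%), CRE (TGACGTCA, 0.394% and 0.170%), SP/KLF (GGGCGG, 4.57% and 1.24%) and NRF1 (GCGCATGCG, 0.203% and 0.0341%) motifs were more frequent in Cux2-only windows. With lists of equal length the NRF1 shares were 0.140% and 0.0765%, from 10 and 6 windows. At promoters SP/KLF motifs stood in 46.1% of Cux2-only, 23.3% of Tle4-only and 59.9% of shared windows, and with lists of equal length in 720 of 1501 Cux2-only and 320 of 800 Tle4-only windows.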

How the data were processed

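ATAC-seq libraries of sorted neurons were aligned by the authors to NCBI37 (mm9) with Bowtie2, duplicates were removed with Picard, and peaks were called with MACS2 on 2 replicates per group and kept at an irreproducible discovery rate of at most 0.1. Reads were 50 bp single-end, and the read depth behind each list is unknown from the files. A shift of reads for the Tn5 cut is not given in the sources used here. The deposited lists give positions, a fold enrichment (ratio) and a −log10 p per peak, as the authors' peak caller wrote them, with the replicates pooled. Here peaks of chromosomes 1 to 19 and X were used, and each lay within the NCBIM37 chromosome lengths. Lists were compared by overlap of at least 1 bp, and context came from the GENCODE annotation of NCBIM37, in the order promoter (1 kb), exon, intron, intergenic. Nearest genes came from TSSs of 22350 coding genes. Members and gene lists were chosen with earlier results of these data known. Named were the genes of the marker lists, the 10 genes per direction with the largest difference of class-only peaks, and the 5 strongest peaks per set. With 1 list per class at E18.5, no test was made between the lists, and the class difference over the other ages used an exact permutation test. Map2 had no entry in the annotation. The code was tested on simulated lists (Python 3.11.15, pandas 2.3.3, scipy 1.17.1). Alternatives were list length, overlap rule, promoter width, gene assignment, window and each age left out. Some single genes of the lists are not reported here.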

Additional observations from a re-analysis of the deposited data

How the results depend on the processing

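Overlap of 50% of the shorter peak or merging within lists moved none of the 7 values below outside its interval or 1.5 times its count. With lists of equal length, 43.9% of Cux2 and 43.8% of Tle4 peaks were class-only, 9.25% of Tle4-only peaks lay at promoters, and 3456 and 2645 genes had more Cux2-only or Tle4-only peaks. From a common −log10 p these were 51.9%, 37.6% and 6.67%, with 1814 genes in the Tle4 direction. In the stronger part of each list 30.4% of Tle4 peaks were class-only, and 27.2% and 6.10% of the Cux2-only and Tle4-only peaks lay at promoters. With summits within 200 bp required, 61.8% and 34.1% were class-only, with 18.54% and 8.11% at promoters. Promoters of 500 bp gave 15.7% and 3.58%, of 2 kb 20.9% and 7.30%, and of coding genes 16.4% and 3.82%. With genes of any type 1755 genes had more Tle4-only peaks. The class difference over the other ages stayed between 45.0 and 60.5 points under the alternatives and between 38.1 and 59.8 points without 1 age, at p = 0.0625 and p = 0.125 in the exact permutation test, the smallest each allows.

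The excess of Cux2-only over Tle4-only peaks turned with equal length at Frmd4a (−2) and in the lists corticothalamic (−21), cadherin (−12), axon guidance (−7), subcerebral (−5), progenitor (−3), pan-neuronal (−2), subplate (−2), astrocyte (−1) and Cajal-Retzius (−1). A common −log10 p turned corticothalamic (−13), cadherin (−7), progenitor (−2) and subcerebral (−1), and the stronger part of each list turned corticothalamic (−7) and microglia (1). Genes of any type turned cadherin (−4), and leaving out promoters, chosen after seeing the data, turned cadherin (−3) and microglia (1). Of the values for single genes and lists, 223 stayed within 1.5 times of the reported value, 98 moved further and these 19 turned. The causes were not tested. Median GC content stayed within the quartiles of its set in windows of 100 bp and 400 bp. No paired analysis was possible because the lists pool the replicates.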
